A study of Mus musculus with 15 samples.

Results

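Mpo, Elane, Prtn3, Ctsg and Lyz2 encode proteins that immature granulocytes and monocytes pack into their granules and lysosomes. They were taken by name from the deposited expression table as 5 of its 12798 genes, and all 5 were among the 12572 genes tested. They were followed here through early innate lymphoid cell (ILC) progenitors of mouse bone marrow, cells on the lymphoid side of blood formation. The series measured RNA by sequencing in 15 sorted bulk samples of 6 groups, and asks what happens on the way to the ILC lineage and when the transcription factor TCF-1, encoded by Tcf7, is missing.

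Neutrophils carry several kinds of granule, made one after another as the cell matures. The primary or azurophil granules come first, at the promyelocyte stage, and their cargo genes are switched on already in granulocyte and monocyte progenitors. Lysozyme stays on longer and is also made by monocytes and macrophages, so the 5 genes mark overlapping but unequal stretches of myeloid development.

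Every sorted population lacked lineage markers and carried Kit and 2B4, and all mice had the C57BL/6 background. The all-lymphoid progenitor, ALP_WT (n = 3), was a4b7- and IL-7Ra+ with high Flt3, from Tcf7EGFP/+ mice. The early ILC progenitor (EILP) gate was a4b7+, positive for the Tcf7 reporter and without Thy1. EILP_WT (n = 3) filled it from Tcf7EGFPnull/+ mice, so these control cells had 1 null Tcf7 allele themselves, and EILP_KO (n = 2) from Tcf7EGFPnull/- mice. In Tcf7GFP Zbtb16GFP mice the gate was split into sEILP_WT (n = 2), with low Zbtb16 and high Flt3, and cEILP_WT (n = 3), with high Zbtb16 and low Flt3. The ILC progenitor, ILCP_WT (n = 2), was a4b7+, reporter-positive, Thy1+ and IL-7Ra+, from Tcf7EGFP/+ mice. Strain and stage cannot be told apart where these groups are compared across strains. The labels do not say that replicates came from separate animals, so p-values measure the spread between these samples.

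Values are log2 of a per-million level, quantile-normalised across libraries. Every library therefore shares the same top value, 11.87, and has a lowest value, its floor, between -4.83 and -4.41 at which 747 to 2575 genes sit. The depth is unknown because no counts were analysed. The labels give 2 batches, and sEILP_WT has no library in batch 2. Tcf7, the targeted gene, was 6.97 and 7.65 in EILP_KO, 9.89, 10.81 and 11.14 in EILP_WT and 2.54, 2.64 and 1.91 in ALP_WT, so the knockout libraries were lowest within the EILP gate. EILP_WT replicate 3 stood apart with 2575 genes at its lowest value.

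Prtn3 and Elane are neighbours. They lie on chromosome 10 of GRCm38 at chr10:79874476-79883174 and chr10:79886247-79888215, both on the plus strand with 3072 bases between them in the GENCODE M21 annotation. Lyz2 lies farther along the same chromosome at chr10:117277331-117282321 on the minus strand, 5475 bases from its copy Lyz1. Mpo is at chr11:87793581-87804413 on the plus strand and Ctsg at chr14:56099881-56102574 on the minus strand. Their coding transcripts have 14 exons for Mpo, 5 for Elane, Prtn3 and Ctsg, and 4 for Lyz2.

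The stretches just before each start of transcription are shown because all 5 hold the same 7 letters on one strand or the other. They were taken from RefSeq promoter windows of build GRCm38.p6 and end 1 base before the start of the coding transcript in GENCODE M21. Each is written 5′ to 3′ on the gene's own strand, and capitals mark AGGAAGT or, on the other strand, ACTTCCT, the core that ETS factors such as PU.1 can bind. The regions are chr11:87793534-87793580 for Mpo, chr10:79886062-79886246 for Elane, chr10:79879417-79879613 for Prtn3, chr14:56102575-56102824 for Ctsg and chr10:117282322-117282522 for Lyz2, the last pair on the minus strand.
Mpo: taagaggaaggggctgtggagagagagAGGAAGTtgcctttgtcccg
Elane: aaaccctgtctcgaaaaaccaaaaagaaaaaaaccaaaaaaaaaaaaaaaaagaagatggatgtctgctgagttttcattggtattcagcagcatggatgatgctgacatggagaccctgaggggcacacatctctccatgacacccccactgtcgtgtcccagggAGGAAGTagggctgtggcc
Prtn3: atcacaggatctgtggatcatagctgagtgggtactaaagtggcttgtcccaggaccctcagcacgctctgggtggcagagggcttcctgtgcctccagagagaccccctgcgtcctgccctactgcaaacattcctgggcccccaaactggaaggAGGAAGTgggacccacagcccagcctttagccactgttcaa
Ctsg: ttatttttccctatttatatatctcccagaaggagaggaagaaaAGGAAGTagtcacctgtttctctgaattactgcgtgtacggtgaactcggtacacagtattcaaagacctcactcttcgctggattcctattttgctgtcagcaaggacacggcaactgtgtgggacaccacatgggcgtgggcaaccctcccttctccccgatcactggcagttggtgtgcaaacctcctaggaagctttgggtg
Lyz2: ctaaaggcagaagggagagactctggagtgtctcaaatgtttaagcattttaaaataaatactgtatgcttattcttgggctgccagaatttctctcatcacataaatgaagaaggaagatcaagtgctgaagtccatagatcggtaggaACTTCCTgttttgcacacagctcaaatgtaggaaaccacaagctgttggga
The match began 20 bases before the GENCODE start in Mpo, 19 in Elane, 41 in Prtn3 and 206 in Ctsg, and in Lyz2 it lay on the opposite strand at 51. The RefSeq starts, on which the windows are set, lie farther downstream by 203 bases in Mpo, 65 in Elane, 53 in Prtn3 and 49 in Lyz2. In Ctsg both starts are the same. The Prtn3 stretch lies inside the gene interval given above, because its coding transcript starts within it. Of 27018 RefSeq windows of 250 bases, 7.81% held AGGAAGT on either strand. The motif was noticed after reading these letters, so the 5 of 5 is a description, and a match is not shown to be a bound site. The longer GAGGAAGT, which contains it, was in 3 (Mpo, Elane and Prtn3) against 2.44% of windows. The shares and the other motifs were read in the whole 250-base windows on both strands, which run past the printed stretches of Mpo, Elane, Prtn3 and Lyz2. The RUNX core TGTGGT was in Ctsg and Lyz2 (14.2% of windows), the MYB core AACGG in Elane and Prtn3 (14.8%) and the C/EBP core TTNNGNAA in Lyz2 (36.9%). The AACGG and TTNNGNAA matches lie outside the printed letters.

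Mpo encodes myeloperoxidase, the haem enzyme of the primary granule that makes hypochlorous acid. It was 10.11, 8.58 and 10.55 in ALP_WT and 11.70, 9.55 and 8.36 in EILP_WT. The split fractions had 11.43 and 11.34 in sEILP_WT and 9.79, 10.95 and 10.04 in cEILP_WT. In EILP_KO it was 11.70 and 11.87, and in ILCP_WT 9.16 and 5.46. Mpo thus stood among the most abundant transcripts of several lymphoid-gated libraries. It was the 1st-ranked gene of EILP_KO replicate 2, where it sat at the shared top value, and ranked 2nd in EILP_KO replicate 1 and EILP_WT replicate 1. In ILCP_WT replicate 2 its rank was 5269. By group mean the order ran from EILP_KO, sEILP_WT, cEILP_WT, EILP_WT and ALP_WT to ILCP_WT. The ranges of EILP_KO and sEILP_WT, and of sEILP_WT and cEILP_WT, did not overlap, while each later neighbour in the order overlapped the next.

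Elane encodes neutrophil elastase, a serine protease stored beside myeloperoxidase. It was 6.25, 5.48 and 3.02 in ALP_WT and 4.63, 5.78 and 2.94 in EILP_WT. The split fractions had 4.61 and 7.04 in sEILP_WT and 3.31, 6.56 and 3.60 in cEILP_WT. In EILP_KO it was 7.45 and 9.65, and in ILCP_WT 7.05 and 3.04. The EILP_KO libraries were the 2 highest of all 15, and every other group spread over at least 2 log2 units and overlapped its neighbour in the order. Elane was the most scattered of the genes, with an SD of 2.00 over the libraries.

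Prtn3 encodes proteinase 3, the serine protease next to Elane in the genome and in the granule. It was 5.97, 6.19 and 6.36 in ALP_WT and 8.18, 7.73 and 5.96 in EILP_WT. The split fractions had 7.69 and 6.98 in sEILP_WT and 5.77, 7.15 and 4.25 in cEILP_WT. In EILP_KO it was 8.46 and 8.52, and in ILCP_WT 5.04 and 3.23. Here too both EILP_KO libraries were above all others, and ILCP_WT had the lowest mean. ALP_WT was tight, with 6.17 ± 0.20 (SD, n = 3).

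Ctsg encodes cathepsin G, a chymotrypsin-like protease of the same granule. It was 5.56, 4.80 and 6.78 in ALP_WT and 7.08, 6.82 and 5.04 in EILP_WT. The split fractions had 8.39 and 8.09 in sEILP_WT and 7.05, 7.56 and 6.18 in cEILP_WT. In EILP_KO it was 7.01 and 8.34, and in ILCP_WT 5.90 and 3.80. Ctsg was highest in sEILP_WT and lowest in ILCP_WT by group mean, and each group overlapped the next in the order.

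Lyz2 encodes the lysozyme of macrophages and granulocytes, which cleaves bacterial cell walls. It was 8.22, 8.08 and 7.84 in ALP_WT and 5.67, 5.48 and 3.62 in EILP_WT. The split fractions had 5.63 and 5.83 in sEILP_WT and 7.09, 6.58 and 9.32 in cEILP_WT. In EILP_KO it was 7.12 and 6.35, and in ILCP_WT 6.75 and 5.83. Its order differed from that of the proteases, with ALP_WT highest and EILP_WT lowest by mean, and each group overlapped the next. Of the 31-base words in the Lyz2 transcript, 32.8% also occur in Lyz1, so reads may have been shared between these copies and Lyz2 values are uncertain to that extent. Lyz1 was not analysed here. The transcripts of Mpo, Elane, Prtn3 and Ctsg shared no such word with each other or with either lysozyme.

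**Figure D1:**
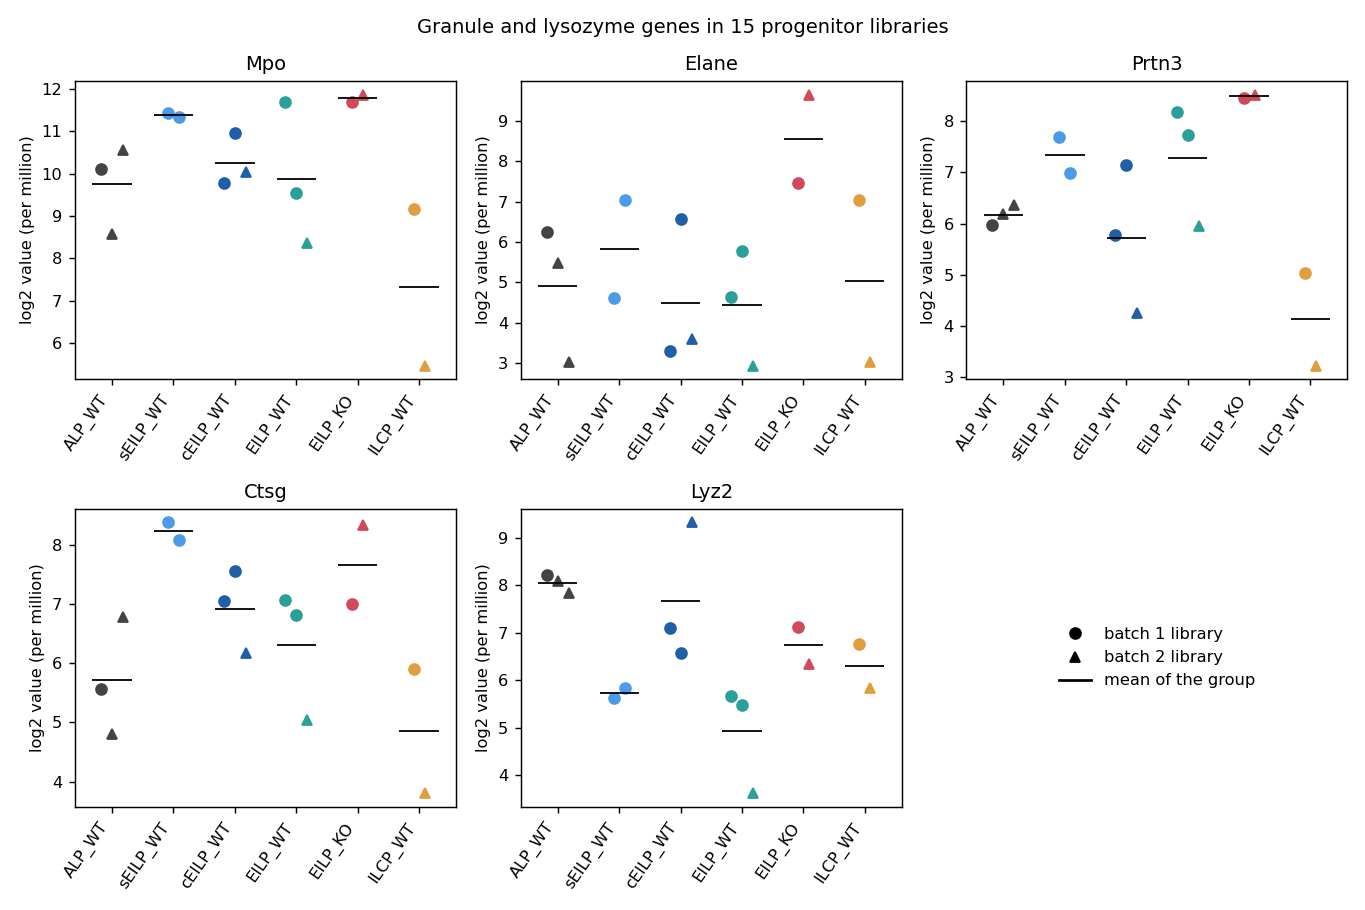
Log2 per-million value of each gene (vertical axis, scaled per panel) in the 15 libraries by group, with circles for batch 1, triangles for batch 2 and a line at each group mean. Both EILP_KO libraries lie above all others for Elane and Prtn3, ILCP_WT has the lowest mean for Mpo, Prtn3 and Ctsg, and Lyz2 is highest in cEILP_WT replicate 3.

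In the knockout comparison every granule gene had a higher fitted value in EILP_KO than in EILP_WT, and none passed the threshold. Elane had the largest difference, 4.36 on the log2 scale (SE 1.29, limma adjusted p = 0.377), from 4.45 ± 1.42 (SD, n = 3) to 8.55 ± 1.56 (SD, n = 2). The differences for Mpo, Lyz2, Ctsg and Prtn3 were 2.13 (SE 0.86), 1.84 (SE 0.75), 1.48 (SE 0.72) and 1.39 (SE 0.62), with adjusted p of 0.548, 0.548, 0.597 and 0.563. Of all tested genes, 0.103% were called in either direction and 0.0477% were called higher. At an unadjusted p under 0.05, 4 of 5 were higher, all but Ctsg, against 3.73% of tested genes. Elane, Prtn3 and Lyz2 had groups that did not overlap, with EILP_KO higher, against 9.59% of tested genes. The median of the 5 was 1.84, beside 0.04 over all tested genes.

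The size of these differences varied with the libraries compared. Within batch 1 (1 and 2 libraries) they were 1.07 for Mpo, 2.24 for Elane, 0.50 for Prtn3, 0.06 for Ctsg and 1.54 for Lyz2. Within batch 2 (1 library each) they were 3.51, 6.71, 2.56, 3.30 and 2.73 in the same order. All were positive in both batches, and those of batch 2 were larger for each gene. EILP_WT replicate 3, the control in batch 2, was the lowest of its group for all 5 genes. Without it the differences were 1.66, 4.02, 0.99, 0.93 and 1.02. Without EILP_KO replicate 2 they were 1.30, 2.23, 0.70, 0.31 and 2.15, and without EILP_KO replicate 1 they were 3.05, 6.73, 2.2, 2.80 and 1.5. In bulk samples a larger share of cells with a transcript and more of it per cell cannot be told apart.

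Markers of other cell types were summed in the same libraries. The 9 measured erythroid and megakaryocyte markers had summed per-million levels of 437 and 576 in EILP_KO and 121 to 483 in EILP_WT, and 6 of the 9 were positive, 3 negative and 0 called by limma. In EILP_KO replicate 2, which had the highest Elane, Klf1 was 7.13 and Gata1 7.06, and Pf4, a platelet gene at the floor of each EILP_WT library, was 5.38. In EILP_KO replicate 1, Klf1 and Pf4 were at the floor and Gata1 was 3.75. The 9 neutrophil markers summed to 20.9 and 16.5 in EILP_KO and 1.74 to 18.1 in EILP_WT, with Camp, Mmp8 and Retnlg at the floor of both EILP_KO libraries. Monocyte and macrophage markers summed to 908 and 915 against 488 to 1111. Sums that were lower in both EILP_KO libraries than in each EILP_WT library were those of mast cell and basophil markers (518 and 375 against 581 to 981), ILC progenitor markers, Tcf7 among them (1762 and 1697 against 2688 to 4604), and T lineage markers (178 and 168 against 181 to 350). The part of these cell types in the granule gene values was not tested.

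Against ALP_WT, EILP_KO gave 0 calls by limma among the 5 genes, where 1.33% of all tested genes were called. At an unadjusted p under 0.05, 3 of 5 were higher (Elane, Prtn3 and Ctsg), against 5.6% of tested genes. Elane differed by 3.38 (SE 1.29, adjusted p = 0.290), Prtn3 by 2.12 (SE 0.62, 0.136), Ctsg by 1.84 (SE 0.72, 0.305) and Mpo by 1.82 (SE 0.86, 0.429), while Lyz2 was lower by -1.35 (SE 0.75, 0.523). All 5 had groups that did not overlap, against 28.8% of tested genes. Without EILP_KO replicate 2 the differences were 1.00 for Elane, 1.35 for Prtn3, 0.52 for Ctsg and 0.90 for Mpo. Leaving out ALP_WT replicates 1 and 2 and cEILP_WT replicate 3, which held neutrophil markers, left 1 ALP_WT library. Mpo then differed by 0.25, Ctsg by 0.40, Prtn3 by 1.46, Elane by 4.81 and Lyz2 by -1.75. EILP_KO is shared between this comparison and the previous one.

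**Figure D2:**
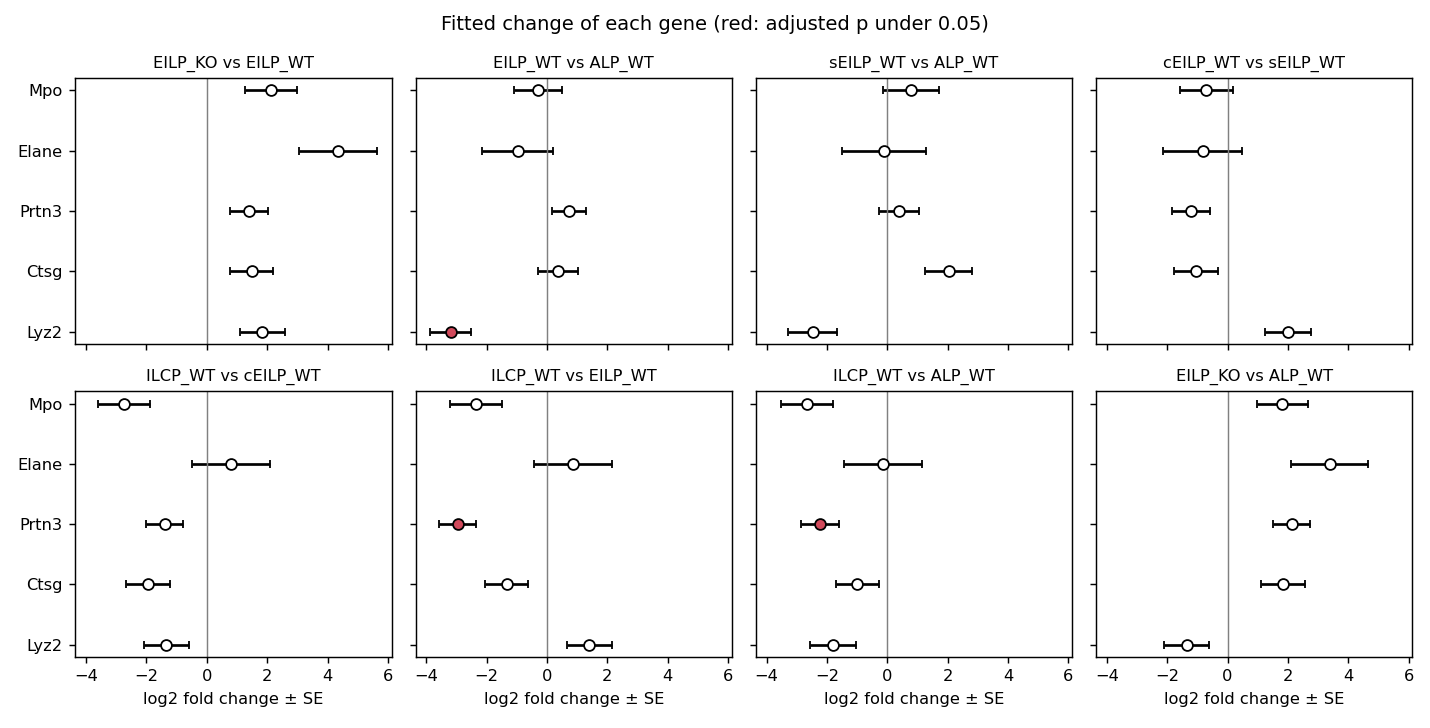
Fitted log2 fold change ± SE (horizontal axis) of each gene in the 8 comparisons, from the limma fit over 15 libraries, with red points at an adjusted p under 0.05 and a grey line at 0. Lyz2 is called in EILP_WT vs ALP_WT and Prtn3 in ILCP_WT vs EILP_WT and ILCP_WT vs ALP_WT, and all 5 points lie right of 0 in EILP_KO vs EILP_WT.

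From ALP_WT to EILP_WT, Lyz2 fell by 3.20 on the log2 scale, which is 9.16-fold (SE 0.68, limma adjusted p = 0.0265). Its means were 8.05 ± 0.19 and 4.93 ± 1.13 (SD, n = 3 each), and the libraries did not overlap, against 9.7% of tested genes with EILP_WT lower. It was the 1 called gene of the 5, where 1.5% of all tested genes were called lower and 3.21% either way. The proteases and Mpo did not pass. Mpo differed by -0.31 (SE 0.79), Elane by -0.98 (SE 1.18), Prtn3 by 0.73 (SE 0.56) and Ctsg by 0.35 (SE 0.66), with adjusted p between 0.587 and 0.906. For Mpo the fitted sign was opposite to that of the plain means, 9.87 in EILP_WT and 9.75 in ALP_WT, because the batches were unevenly filled and the fit has a batch term.

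The Lyz2 call rested on few libraries. It was lost without ALP_WT replicate 1 (adjusted p = 0.109), replicate 2 (0.0817) or replicate 3 (0.0636), with differences of -3.17, -3.14 and -3.26. Without EILP_WT replicate 3 the difference was -2.29 (adjusted p = 0.170). Within batch 1, where replicate 1 is the 1 ALP_WT library, it was -2.65. Within batch 2, where replicate 3 is the 1 EILP_WT library, it was -4.34. Neutrophil markers differed between the ALP_WT libraries, with summed per-million levels of 217 and 160 in replicates 1 and 2 and 0.256 in replicate 3. In replicate 3 Lyz2 was 7.84, S100a8 was at the lowest value and S100a9 was -4.72. The part of neutrophil RNA in the Lyz2 values of ALP_WT was not tested. Without ALP_WT replicates 1 and 2 and cEILP_WT replicate 3, a choice made after seeing the marker values, Lyz2 fell by 3.77. That fit left ALP_WT with replicate 3 as its 1 library, so its spread within ALP_WT could not be measured.

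In sEILP_WT against ALP_WT no granule gene passed, with 0 of 5 called by limma against 0.803% of tested genes. At an unadjusted p under 0.05, Ctsg was higher, against 5% of tested genes, and Lyz2 lower, against 4.14%. Ctsg differed by 2.03 (SE 0.78, adjusted p = 0.420) and Lyz2 by -2.47 (SE 0.81, adjusted p = 0.325). Mpo, Prtn3 and Elane differed by 0.78 (SE 0.93), 0.39 (SE 0.67) and -0.12 (SE 1.39). The groups did not overlap for 4 of 5, all but Elane, against 29.4% of tested genes. Within batch 1, which holds both sEILP_WT libraries and 1 of ALP_WT, Ctsg differed by 2.68 (limma adjusted p = 0.0267) and Lyz2 by -2.49 (adjusted p = 0.0326), both past the threshold. Without the libraries with neutrophil markers Ctsg differed by 0.47 (adjusted p = 0.977) and Lyz2 by -3.40 (adjusted p = 0.0781), and ALP_WT was then 1 library of the batch that sEILP_WT lacks.

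Between the Zbtb16high and Zbtb16low fractions of the EILP gate, 0 of the 5 genes and 0% of all tested genes were called by limma. At an unadjusted p under 0.05 there were 647 genes, and Lyz2 was the 1 among the 5, against 2.58% of tested genes higher. Lyz2 was 7.67 ± 1.46 (SD, n = 3) in cEILP_WT and 5.73 ± 0.14 (SD, n = 2) in sEILP_WT, a difference of 2.01 (SE 0.76, adjusted p = 0.831). The other 4 genes were negative, Prtn3 at -1.22 (SE 0.63), Ctsg at -1.06 (SE 0.73), Elane at -0.82 (SE 1.31) and Mpo at -0.70 (SE 0.88). The groups did not overlap for Mpo, Ctsg and Lyz2, which is 3 of 5 against 25.3% of tested genes.

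A single library held the highest Lyz2 value. cEILP_WT replicate 3 had Lyz2 at 9.32, and its neutrophil markers had a summed per-million level of 879, against 4.76 and 5.42 in the other two cEILP_WT libraries. S100a8 and S100a9, the alarmins of mature neutrophils, were 7.77 and 7.79 there, and the secondary granule genes Ltf, Camp and Ngp were 6.39, 5.86 and 7.13. Prtn3 at 4.25 and Ctsg at 6.18 were the lowest of their group in that library, and Mpo at 10.04 and Elane at 3.60 lay between the others. Without it the Lyz2 difference from sEILP_WT was 1.11 (adjusted p = 0.830), and that from cEILP_WT to ILCP_WT was -0.05 in place of -1.34. The part of neutrophil RNA in these values was not tested.

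**Figure D3:**
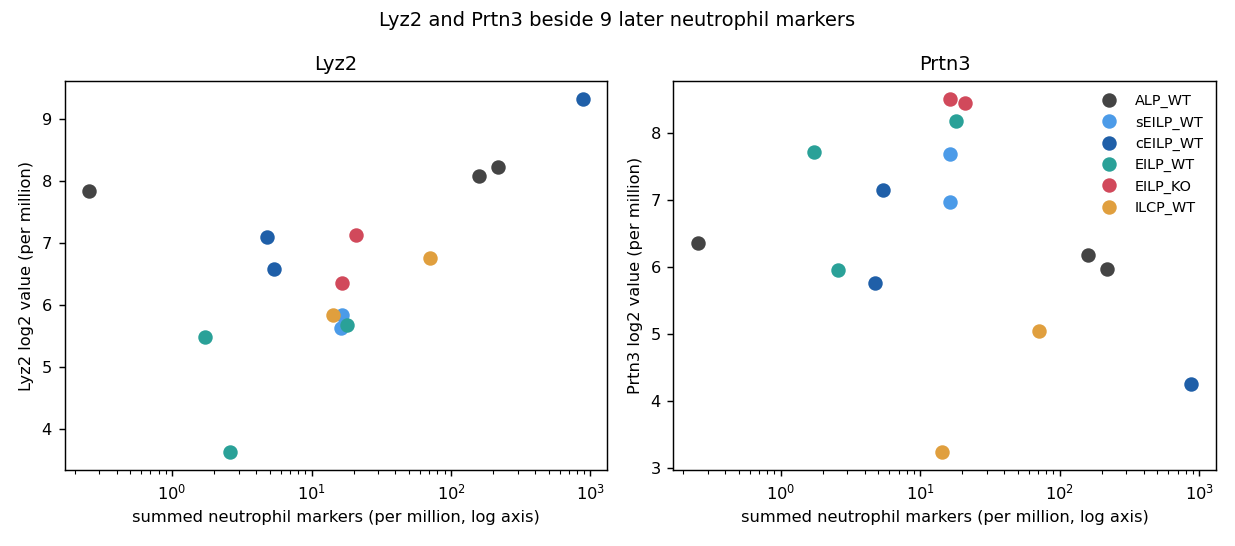
Lyz2 (left) and Prtn3 (right) as log2 per-million values against the summed per-million level of 9 later neutrophil markers (horizontal, log axis), 1 point per library. cEILP_WT replicate 3, at 879, has the highest Lyz2 and a Prtn3 value of 4.25, and ALP_WT replicate 3, at 0.256, has Lyz2 at 7.84.

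The ILCP_WT libraries had the lowest group means for Mpo, Prtn3 and Ctsg. From EILP_WT to ILCP_WT, Prtn3 fell by 2.96, which is 7.77-fold (SE 0.62, limma adjusted p = 0.0137), from 7.29 ± 1.17 (SD, n = 3) to 4.14 ± 1.28 (SD, n = 2), and the libraries did not overlap, against 17.5% of tested genes with ILCP_WT lower. It was the 1 called gene of the 5, against 4.34% of tested genes called lower and 6.95% either way. Mpo differed by -2.35 (SE 0.86, adjusted p = 0.130), Ctsg by -1.34 (SE 0.72, 0.305), Elane by 0.85 (SE 1.29, 0.762) and Lyz2 by 1.40 (SE 0.75, 0.303). Lyz2 libraries did not overlap and were higher in ILCP_WT, against 14.8% of tested genes. Within batch 1 Prtn3 differed by -2.91 (adjusted p = 0.0547) and within batch 2 by -2.73 (0.137). Without ILCP_WT replicate 2, it differed by -2.59 and was not called (adjusted p = 0.0883). Without ILCP_WT replicate 1, Mpo was called too, at -3.88 (adjusted p = 0.0422), and without ILCP_WT replicate 2 it was -0.98 (adjusted p = 0.640) and Ctsg -0.58.

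Measured from cEILP_WT, ILCP_WT had 0 of 5 calls by limma, against 7.41% of tested genes, and 3 of 5 lower at an unadjusted p under 0.05, against 13.8%. Mpo differed by -2.74 (SE 0.86, adjusted p = 0.0798), Ctsg by -1.95 (SE 0.72, 0.128), Prtn3 by -1.40 (SE 0.62, 0.209), Lyz2 by -1.34 (SE 0.75, 0.325) and Elane by 0.81 (SE 1.29, 0.774). Without ILCP_WT replicate 1, Mpo was called at -4.27 (adjusted p = 0.0262), and without ILCP_WT replicate 2 it was -1.37 (adjusted p = 0.478) and Ctsg -1.19. Mpo and Ctsg had groups that did not overlap, with ILCP_WT lower, against 20.1% of tested genes.

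From ALP_WT to ILCP_WT, Prtn3 fell by 2.23, which is 4.68-fold (SE 0.62, limma adjusted p = 0.0327), against 7.86% of tested genes called lower and 13.4% either way. The means were 6.17 ± 0.20 (SD, n = 3) and 4.14 ± 1.28 (SD, n = 2), and for Prtn3 and Lyz2 the groups did not overlap, against 21.7% of tested genes with ILCP_WT lower. All 5 fitted differences were negative, with Mpo at -2.66 (SE 0.86, adjusted p = 0.0636), Lyz2 at -1.80 (SE 0.75, 0.144), Ctsg at -0.99 (SE 0.72, 0.422) and Elane at -0.13 (SE 1.29, 0.973). Prtn3 was no longer called without ALP_WT replicate 2 (-2.03, adjusted p = 0.0943) or replicate 3 (-1.94, 0.102), or without ILCP_WT replicate 1 (-2.60, 0.0618) or replicate 2 (-1.81, 0.224). Within batch 1 it differed by -0.92 and within batch 2 by -3.04. Without ILCP_WT replicate 1, Mpo was called at -4.03 (adjusted p = 0.0203), and without ILCP_WT replicate 2 it was -1.13 (adjusted p = 0.574) and Ctsg -0.14.

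Both ILCP_WT libraries differed from each other for every granule gene. Replicate 2 was lower than replicate 1 for all 5, by 3.70 on the log2 scale for Mpo, 4.02 for Elane, 1.81 for Prtn3, 2.09 for Ctsg and 0.92 for Lyz2. Replicate 1 also held the basophil and mast cell protease genes Prss34 and Mcpt8 at 8.83 and 7.51, and both were at the lowest value in replicate 2. The 6 measured basophil and mast cell markers had summed per-million levels of 767 and 89.9 in that order, and the 9 neutrophil markers had 71.0 and 14.3. Of the neutrophil markers, 6 were at the lowest value in both, Ltf, Camp and Ngp among them. In replicate 1, 8 of the 9 were at the lowest value, so its 71.0 came from 1 marker. The part of these markers in the granule gene values was not tested, and each library is from its own batch.

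A list of 13 partners holds genes that process, store or restrain the granule proteases together with other genes of myeloid progenitors and granules, and 12 were measured. In EILP_KO against EILP_WT 0 of the 12 were called by limma, 8 were positive, and the median was 0.30. Ms4a3, a membrane gene of granulocyte and monocyte progenitors, was 5.08 and 6.55 in EILP_KO, 3.57 in EILP_WT replicate 2 and at the lowest value in the other two EILP_WT libraries (limma adjusted p = 0.451). Ctsc, which encodes the cathepsin that activates the granule proteases, was 7.68 ± 0.17 in EILP_KO and 8.24 ± 0.20 in EILP_WT (limma adjusted p = 0.485).

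From ALP_WT to EILP_WT 3 partners rose, 1 fell and 8 did not pass, where 3.21% of all tested genes were called, with a median of -0.18 beside -0.01 for all tested genes. Ctsc rose by 0.95 (SE 0.19, limma adjusted p = 0.0196). Cd63, a membrane protein of primary granules and lysosomes, rose by 1.91 (SE 0.45, 0.0435), and Hp, which encodes haptoglobin, by 4.07 (SE 0.74, 0.0111). Serpinb1a, an intracellular inhibitor of elastase, proteinase 3 and cathepsin G, fell by 2.01 (SE 0.22, 0.000491). Serpinb1a was 8.78, 8.67 and 8.33 in ALP_WT and 6.96, 6.87 and 6.16 in EILP_WT. It fell as well from ALP_WT to EILP_KO, by 1.70 (SE 0.24, 0.00431), where Hp rose by 3.89 (SE 0.81, 0.0366).

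From EILP_WT to ILCP_WT 5 partners fell, 1 rose and 6 did not pass, where 6.95% of all tested genes were called, with a median of -0.71 beside -0.06 for all tested genes. Plac8, a gene of myeloid and lymphoid progenitors, fell by 4.25 (SE 0.22, limma adjusted p = 7.41e-07), and its libraries went from 10.66, 10.34 and 9.96 to 6.18 and 5.86. Cd63 fell by 3.74 (SE 0.50) and Hp fell by 3.18 (SE 0.81). Srgn, which encodes the proteoglycan core that holds granule proteases, fell by 0.81 (SE 0.19). Prss57, a further serine protease of primary granules, was 6.93, 6.29 and 5.76 in EILP_WT, and in ILCP_WT it was at the lowest value in replicate 1 and -0.14 in replicate 2 (adjusted p = 0.000158). Serpinb1a rose by 2.29 (SE 0.24, adjusted p = 0.000170) to 9.04 and 8.78. From cEILP_WT to ILCP_WT 2 rose and 5 fell, against 7.41% of tested genes called, and from ALP_WT 1 rose and 3 fell, against 13.4%. In sEILP_WT against ALP_WT and cEILP_WT against sEILP_WT 0 of 12 passed.

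Mpo needs haem and chaperones of the endoplasmic reticulum to mature, and 1 of these 11 genes moved repeatedly. Calr, which encodes the chaperone calreticulin that binds the Mpo precursor, rose from ALP_WT by 0.58 in EILP_WT (SE 0.12, limma adjusted p = 0.0285), by 0.99 in sEILP_WT (SE 0.15, 0.0119) and by 0.76 in EILP_KO (SE 0.14, 0.0185). These comparisons share the ALP_WT libraries. Calr fell by 0.93 from cEILP_WT to ILCP_WT (SE 0.14, 0.00163) and by 0.61 from EILP_WT to ILCP_WT (SE 0.14, 0.0194). Pdia3, which encodes a further chaperone of this compartment, was called higher in ILCP_WT than in ALP_WT. In the knockout comparison 0 of 11 passed, with 9 positive and a median of 0.24.

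Among 12 genes of transcription factors known to act in myeloid progenitors, 6 fell from EILP_WT to ILCP_WT and 6 did not pass, where 4.34% of all tested genes were called lower, and the median of the 12 was -2.46. Spi1, which encodes PU.1, was 8.06, 7.69 and 6.74 in EILP_WT and 4.43 and -0.14 in ILCP_WT, and fell by 5.13 (SE 0.77, limma adjusted p = 0.00188). Cebpa fell by 2.76 (SE 0.75, 0.0476), Irf8 fell by 3.65 (SE 0.35, 7.69e-05) and Runx1 fell by 1.03 (SE 0.25, 0.0301). Myb was 8.83, 8.37 and 7.97 in EILP_WT and 6.20 in both ILCP_WT libraries (7.29e-05), and Gfi1b was at the lowest value in ILCP_WT replicate 1 (0.00104). Irf8 encodes a factor that favours monocytes and dendritic cells over granulocytes. From cEILP_WT and from ALP_WT to ILCP_WT, Spi1, Irf8, Myb and Gfi1b fell, 4 of 12 in each with 8 not passing, where 7.41% and 13.4% of all tested genes were called either way, and the comparisons share ILCP_WT.

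In EILP_KO against EILP_WT 0 of the 12 factors passed, 9 were positive and the median was 0.53. Spi1 was 8.28 and 8.14 in EILP_KO, above each EILP_WT library (limma adjusted p = 0.763), and Cebpa 4.37 and 4.83, within their range (0.966). Cebpe, a later granulocyte factor, was 1.5 and 1.11 in EILP_KO, and in EILP_WT 1.32 in replicate 1 and at the lowest value in the other two. From ALP_WT to EILP_WT 0 of 12 passed. Cebpa was 1.89, 2.81 and 3.40 in ALP_WT and 3.84 to 5.07 in EILP_WT (adjusted p = 0.274).

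Of 7 myeloid growth factor receptor genes, 2 fell from EILP_WT to ILCP_WT and 5 did not pass. Of all tested genes, 4.34% were called lower in that comparison and 6.95% either way. Csf3r, the receptor for granulocyte colony-stimulating factor, was between 4.35 and 7.08 in the 13 other libraries and at the lowest value in both ILCP_WT libraries (limma adjusted p = 7.28e-06 against EILP_WT). Il6ra also fell from EILP_WT to ILCP_WT (adjusted p = 0.0212), with replicate 1 at the lowest value and replicate 2 at 2.32. In the knockout comparison 0 of the 7 passed, all 7 were positive and the median was 0.63. Csf3r was 5.86 and 6.39 in EILP_KO and 6.67, 4.35 and 5.38 in EILP_WT.

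**Figure D4:**
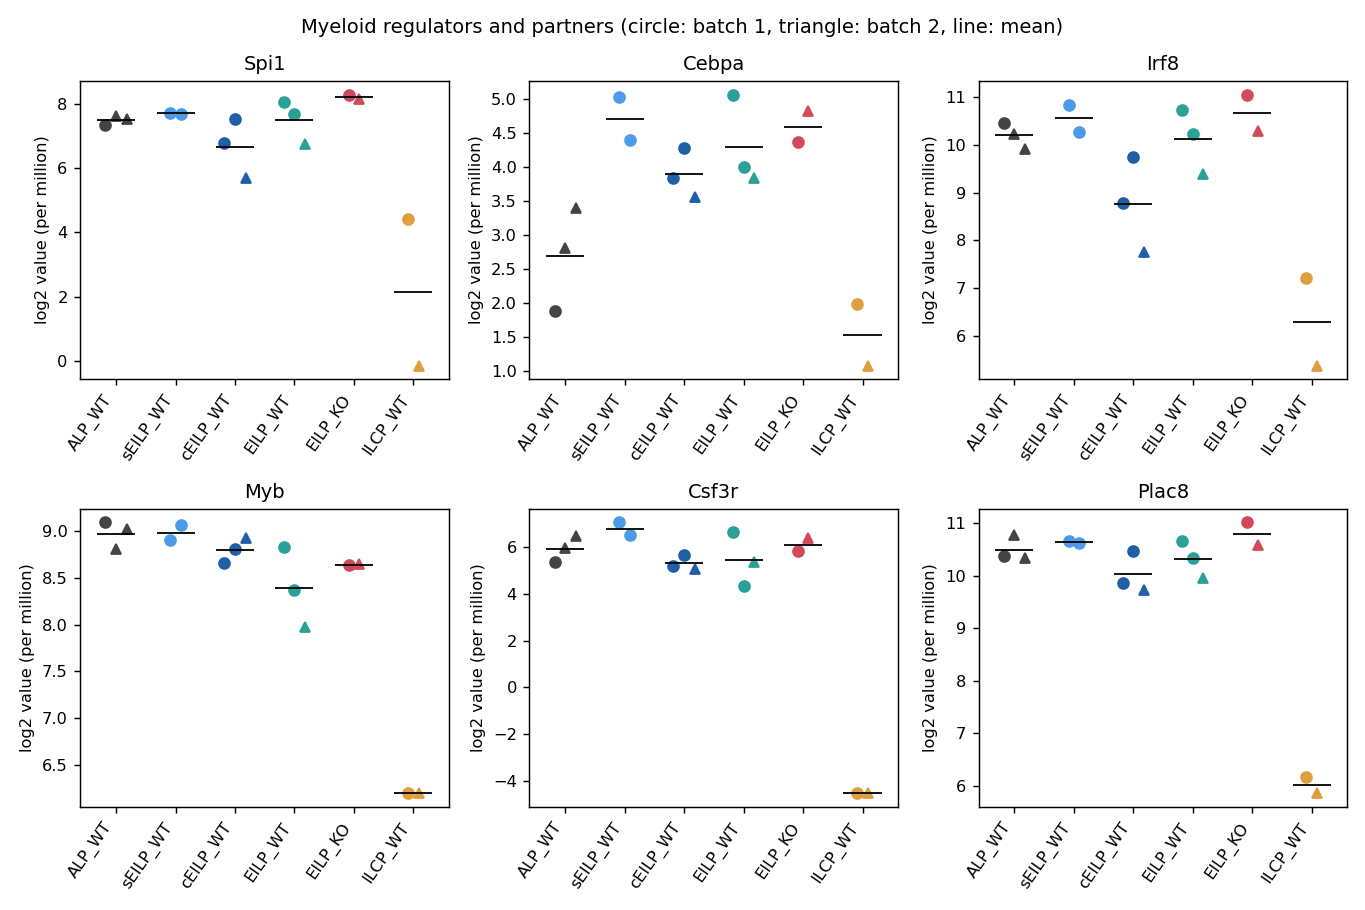
Log2 per-million values (vertical, scaled per panel) of the factor genes Spi1, Cebpa, Irf8 and Myb, the receptor gene Csf3r and the progenitor gene Plac8 in 15 libraries by group, with circles for batch 1, triangles for batch 2 and lines at group means. ILCP_WT has the lowest mean in every panel, and Csf3r lies at the lowest value of both ILCP_WT libraries.

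Genes of later granules and of general lysosomes were followed for contrast. Of 12 listed later neutrophil granule genes 10 were measured, and 0 passed in EILP_KO against EILP_WT, with a median of 0.75, or 0.94 without 5 genes that had a whole group at the lowest value. Itgam, the integrin chain of macrophage-1 antigen, fell in ILCP_WT against EILP_WT (limma adjusted p = 0.0205) and ALP_WT (0.0216). It was the 1 called gene of the 10 in each, where 4.34% and 7.86% of all tested genes were called lower. Itgam was at the lowest value in ILCP_WT replicate 1 and 4.27 in replicate 2. Of 16 lysosomal genes, 0 passed in the knockout comparison, with 9 positive and a median of 0.09. From EILP_WT to ILCP_WT Ctsh fell by 2.71 (SE 0.60, adjusted p = 0.0179), Gusb fell by 1.12 (SE 0.26, 0.0225), and 14 did not pass. These 2 calls of 16 stand beside 4.34% of all tested genes called lower and 6.95% either way.

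The granule genes differed in how they varied together over the 15 libraries. Mpo and Ctsg had a Pearson correlation of 0.89 (Spearman 0.83), with 0.64 in the 9 libraries of batch 1, 0.95 in the 6 of batch 2 and 0.82 without the 2 libraries farthest in Mpo. Mpo and Prtn3 had 0.81 (Spearman 0.80), with 0.76 and 0.78 within the batches and 0.65 without the ILCP_WT libraries. Elane and Prtn3, the neighbours, had 0.56, with 0.03 in batch 1 and 0.76 in batch 2. Lyz2 had 0.12 with Mpo, 0.05 with Elane, -0.08 with Ctsg and -0.26 with Prtn3. These are descriptions over libraries that share groups, batches and one normalisation, and the groups themselves set much of each value.

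**Figure D5:**
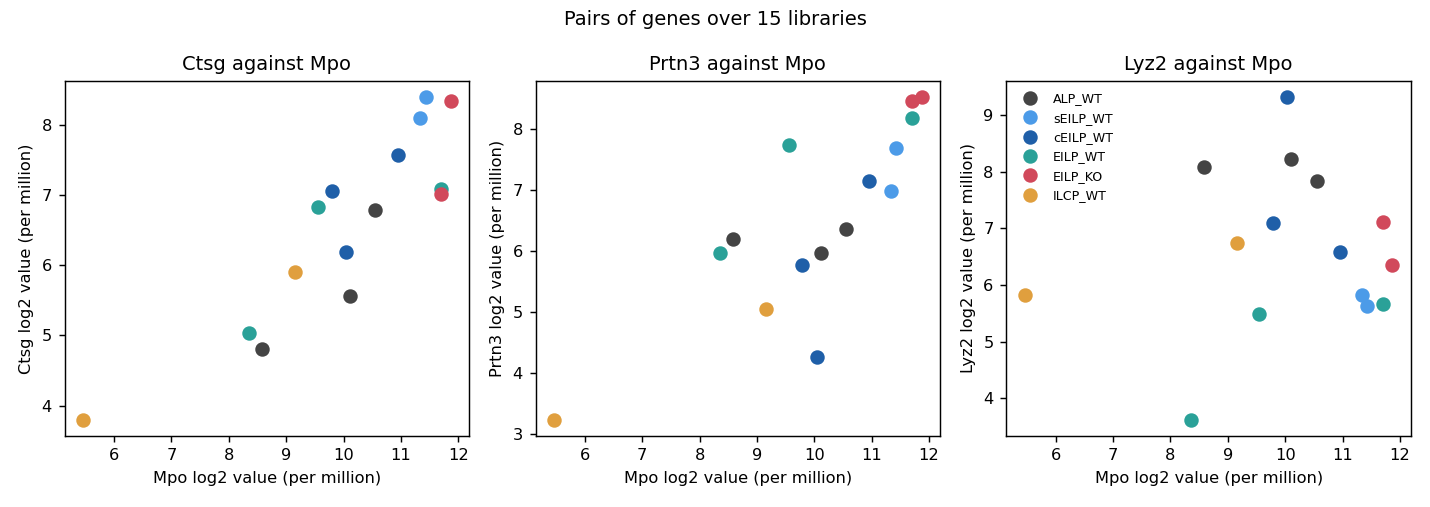
Ctsg, Prtn3 and Lyz2 (vertical axes) against Mpo (horizontal), all as log2 per-million values, 1 point per library coloured by group. Ctsg and Prtn3 follow Mpo with correlations of 0.89 and 0.81 over 15 libraries, and Lyz2 does not, at 0.12.

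Genes most like each one were chosen by the highest Pearson correlation over the 15 libraries among 10719 genes. For Mpo they were Anxa3 and Ywhag at 0.92, Ybx1 at 0.90, and Adss and Cirh1a at 0.89. For Prtn3 they were Gapt at 0.92, Pgam1 and Erp29 at 0.90, Gm9769 at 0.89 and Irf8 at 0.88. For Ctsg the values ran from 0.83 to 0.86 (Hdlbp, Mapkapk3, Uchl5, Arhgap6 and Egln3), for Elane from 0.74 to 0.77 (Nploc4, Ms4a3, Slc14a1, Fbxo6 and 1110012L19Rik) and for Lyz2 from 0.76 to 0.79 (Cstf1, Tcof1, Rwdd2b, Dscr3 and Pspc1). The 5 granule genes were left out of each other's lists, and no gene appeared in more than 1 list. With 10719 candidates and 15 libraries, high values can arise from the choice alone, and none was tested.

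Genes around the granule loci were read for comparison. Within 50 kb of the 5 genes, 19 other protein-coding genes are annotated and 7 of them were tested. In the knockout comparison 0 of the 7 passed, and Med16, separated from Elane by Cfd, had 0.59 (SE 0.25, limma adjusted p = 0.552). Med16 was the 1 neighbour called anywhere, falling by 0.96 from cEILP_WT to ILCP_WT (adjusted p = 0.0356) and by 0.83 from ALP_WT to ILCP_WT (0.0423). Ptbp1 and R3hdm4, on either side of the Prtn3 and Elane pair, differed by 0.07 (SE 0.14) and -0.38 (SE 0.19) in EILP_KO against EILP_WT, where Elane differed by 4.36.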

How the data were processed

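RNA from sorted bone marrow cells went into SMARTer and Nextera XT libraries, per the labels' protocols. The tools in the submitters' processing notes are STAR 2.5.2b, RSEM 1.2.23, bcl2fastq 2.17 and limma, with build mm10; the annotation is not given in the sources used here. The authors deposited log2 values for 15 libraries, read from the values as per-million and quantile-normalised, so an edgeR-type count test could not be used. A further 24 columns without names were not used.

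A gene was tested if its log2 value reached 0 in 2 or more libraries. A limma fit (version 3.58.1, R 4.3.3) with group and batch as terms and a variance trend covered all libraries. It was tested on simulated data with independent noise and no batch effect, so that test does not cover uneven batches. P-values were adjusted by Benjamini-Hochberg over all tested genes within each of 8 comparisons, and a gene is called at an adjusted p under 0.05. Named genes are the 5 granule genes, members of the gene lists, and the 5 genes most correlated with each; neighbours within 50 kb were named after their values were seen. Members and lists were chosen with earlier results of these data known. Alternatives were other fits, filters, normalisations, single batches and leaving out libraries. Libraries with the same replicate number were compared by their deviations from group means, with correlations of -0.05 to 0.05. Some shared numbers lie in different batches, so this check could miss a pairing.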

Additional observations from a re-analysis of the deposited data

How the results depend on the processing

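Over all alternatives, 585 values of single genes were recomputed, of which 519 kept direction and side of the threshold, 20 lost a call, 9 gained one and 37 changed sign. All sign changes were of values that were not called. In EILP_KO vs EILP_WT the 5 differences stayed positive with 0 calls under every alternative run. The number of called genes in EILP_WT vs ALP_WT, 1, was 0 with no variance trend and 0 in batch 2 alone, and 0 to 1 when single libraries were left out. In sEILP_WT vs ALP_WT it was 1 in a fit of only these groups and 2 in batch 1 alone, in place of 0. In ILCP_WT vs EILP_WT it was 0 in a fit of only these groups and in batch 1 or batch 2 alone, and 0 to 2 with single libraries left out, in place of 1. In ILCP_WT vs ALP_WT it was 0 with no batch term, no variance trend, batch 1 or batch 2 alone, and without the 3 libraries with neutrophil genes, 2 with values under 0 set to 0, and 0 to 1 with single libraries left out, in place of 1. In a fit of only these groups it was 1, with Lyz2 called (-1.85, limma adjusted p = 0.0347) in place of Prtn3 (-2.13, adjusted p = 0.111). In ILCP_WT vs cEILP_WT it was 0 to 1 with single libraries left out, and in EILP_KO vs ALP_WT 1 in a fit of only these groups, both in place of 0. With no batch term, Mpo turned to 0.12 in EILP_WT vs ALP_WT, and Elane to 0.91 in sEILP_WT vs ALP_WT and 0.13 in ILCP_WT vs ALP_WT. With the replicate block, which took the shared numbers as pairs, Mpo was 0.12 in EILP_WT vs ALP_WT, and Elane was 0.19 in sEILP_WT vs ALP_WT, -0.16 in ILCP_WT vs cEILP_WT and -0.12 in ILCP_WT vs EILP_WT; the block changed no count of called genes. In batch 1 alone, Mpo was 0.51 in EILP_WT vs ALP_WT, and in ILCP_WT vs ALP_WT Elane was 0.81 and Ctsg 0.34. In batch 2 alone, Prtn3 was -0.32 and Ctsg -0.75 in EILP_WT vs ALP_WT, and Elane -0.56 in ILCP_WT vs cEILP_WT. Leaving out the 3 libraries with neutrophil genes (ALP_WT replicates 1 and 2 and cEILP_WT replicate 3) was chosen after seeing the data. Without them Elane was 0.47 and Ctsg -1.13 in EILP_WT vs ALP_WT, Mpo -1.13, Elane 1.36 and Prtn3 -0.35 in sEILP_WT vs ALP_WT, Elane 1.30 in ILCP_WT vs ALP_WT, and Lyz2 0.09 in ILCP_WT vs cEILP_WT. With single libraries left out, values in EILP_WT vs ALP_WT ran from -0.97 to 0.27 for Mpo, -0.04 to 1.17 for Prtn3 and -0.16 to 0.97 for Ctsg. In sEILP_WT vs ALP_WT they ran from -0.52 to 0.75 for Prtn3 and -1.34 to 1.10 for Elane. For Elane they ran from -2.04 to 0.40 in cEILP_WT vs sEILP_WT, -0.75 to 2.21 in ILCP_WT vs cEILP_WT, -0.71 to 2.25 in ILCP_WT vs EILP_WT and -1.53 to 1.44 in ILCP_WT vs ALP_WT. Where a fit left 1 library in a group, that library was assumed to vary like the others. The cause of these changes was not tested. Batch 2 alone was not run for the comparisons with sEILP_WT, which has no library there. Depth is unknown, so no detection limit is given, and groups of 2 or 3 libraries limit precision.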

Other observations

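Of 6 measured mast cell and basophil markers, Cpa3 was the 1 called by limma, in 6 of the 8 comparisons, which share groups. Between 0.803% and 13.4% of all tested genes were called in those 6 comparisons. Cpa3, which encodes the mast cell carboxypeptidase, was 2.06, 1.76 and 3.49 in ALP_WT, between 9.07 and 9.55 in EILP_WT and 8.90 and 7.95 in EILP_KO. It was at least 9.89 in sEILP_WT, between 10.06 and 10.34 in cEILP_WT, and 6.73 and 6.49 in ILCP_WT. Every library of the EILP gate thus held more Cpa3 than any ALP_WT or ILCP_WT library, whether Lyz2 was high or low there. Prss34, a basophil protease gene, was scattered within groups. It was 7.30 in EILP_WT replicate 2, 8.91 in cEILP_WT replicate 1 and 8.83 in ILCP_WT replicate 1, and no higher than 5.06 in the 12 other libraries. Mcpt8, which lies near Ctsg on chromosome 14, was 7.46 in cEILP_WT replicate 1 and 7.51 in ILCP_WT replicate 1, and at the lowest value in ILCP_WT replicate 2. Ctsg was 7.05, 5.90 and 3.80 in those libraries in the same order.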
